A study of Mus musculus with 12 samples.

Results

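The circadian clock genes Arntl, Clock, Per1, Per2, Per3, Cry1, Cry2, Nr1d1, Nr1d2 and Dbp were followed across 4 conditions of AML12 cells, a mouse line derived from hepatocytes of an animal transgenic for human transforming growth factor alpha. Members were chosen by gene symbol. Of the 10 symbols, 10 were in the table of 19037 genes, and 10 of 10 were among the 13346 genes with enough counts to be tested. Each condition had 3 libraries of total RNA. The FK228+YF cells received FK228 (romidepsin, a bacterial depsipeptide that inhibits class I histone deacetylases, or HDACs) and overexpressed YF mutants of class I HDACs. The FK228 cells, labelled HDI, received the inhibitor without the mutants, the YF cells overexpressed the mutants without the inhibitor, and the control cells had neither. The FK228 and control libraries have sample codes that begin with GFP, with no further word on it. The hour of harvest, any synchronisation of the cells, the dose and duration of FK228 and the identity of the mutated HDACs are not given in the sources used. A change in the phase of a rhythm and a change in its mean level therefore cannot be told apart in these data.

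The clock is a feedback loop of transcription. ARNTL (also called BMAL1) and CLOCK bind E-boxes as a dimer and switch on the Per, Cry, Nr1d and Dbp genes, and the PER and CRY proteins return to the nucleus and block that dimer. In a linked loop, NR1D1 and NR1D2 (REV-ERB alpha and beta) compete with the ROR receptors for RORE sites, among them those of Arntl, and repress there with the NCOR1 corepressor, which holds HDAC3. In liver this route from the clock to HDAC3 is known for its control of lipid metabolism. DBP carries the rhythm to output genes through D-boxes.

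Promoters from RefSeq (GRCm38.p6, 250 bases before to 50 after an annotated start) matched 9 of the 10 members by gene, with 13 promoters in all. Per2 had no promoter in this set, so its letters were not searched. They were searched on both strands for the E-box CACGTG, the E-prime box CACGTT, the RORE letters TAGGTCA and TGGGTCA and the core AGGTCA (a match to TAGGTCA also counts as a core), the D-box letters TTATGTAA and TTACGTAA, the CRE letters TGACGTCA and the GC box GGGCGG. The 6 windows are shown because they hold the E-box, RORE and D-box letters through which the proteins of the loop are known to act. Capitals mark the E-box or E-prime box in Cry1, Cry2, Per1 and Nr1d1, the RORE in Arntl and both D-boxes in Per3, and an E-prime box on the other strand reads AACGTG.
Cry1 (chr10:85185089-85185153, minus strand): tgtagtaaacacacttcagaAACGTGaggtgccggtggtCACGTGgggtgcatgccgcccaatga
Cry2 (chr2:92434210-92434255, minus strand): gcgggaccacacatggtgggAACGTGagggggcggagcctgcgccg
Per1 promoter 1 (chr11:69098763-69098808, plus strand): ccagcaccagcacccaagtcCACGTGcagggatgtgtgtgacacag
Nr1d1 (chr11:98775380-98775425, minus strand): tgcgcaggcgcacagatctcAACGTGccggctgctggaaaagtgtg
Arntl promoter 2 (chr7:113207521-113207560, plus strand): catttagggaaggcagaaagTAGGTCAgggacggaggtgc
Per3 (chr4:151044796-151044890, minus strand): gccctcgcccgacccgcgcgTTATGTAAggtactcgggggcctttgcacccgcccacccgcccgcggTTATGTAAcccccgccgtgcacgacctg
The E-box letters were in 7.15% of the 32851 RefSeq promoters of the same length, and in 2 of the 13 member promoters (Cry1 and Per1). The E-prime box was in 4.68% of all promoters and in those of Cry1, Cry2 and Nr1d1, so Cry1 held one of each. The D-box TTATGTAA was in 0.938% of all promoters and occurred in the Per3 promoter at 205 and at 158 bases before its start. TAGGTCA was in 2.61% of all promoters and in 1 of the 2 Arntl promoters, and the core AGGTCA, in 16.3% of all promoters, was also in those of Clock, Per1 and Nr1d2. TGGGTCA (3.98% of all promoters), TTACGTAA (0.119%) and the CRE (1.79%) were in 0 of 13. The GC box was in 11 of 13, from 8 of the 9 genes, against 35.7% of all promoters. The 13 are not independent, since the 2 Arntl promoters overlap and share their GC boxes, and promoters 1 and 2 of Clock overlap too. A match is a description of letters in this window and not a bound site.

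**Figure D1:**
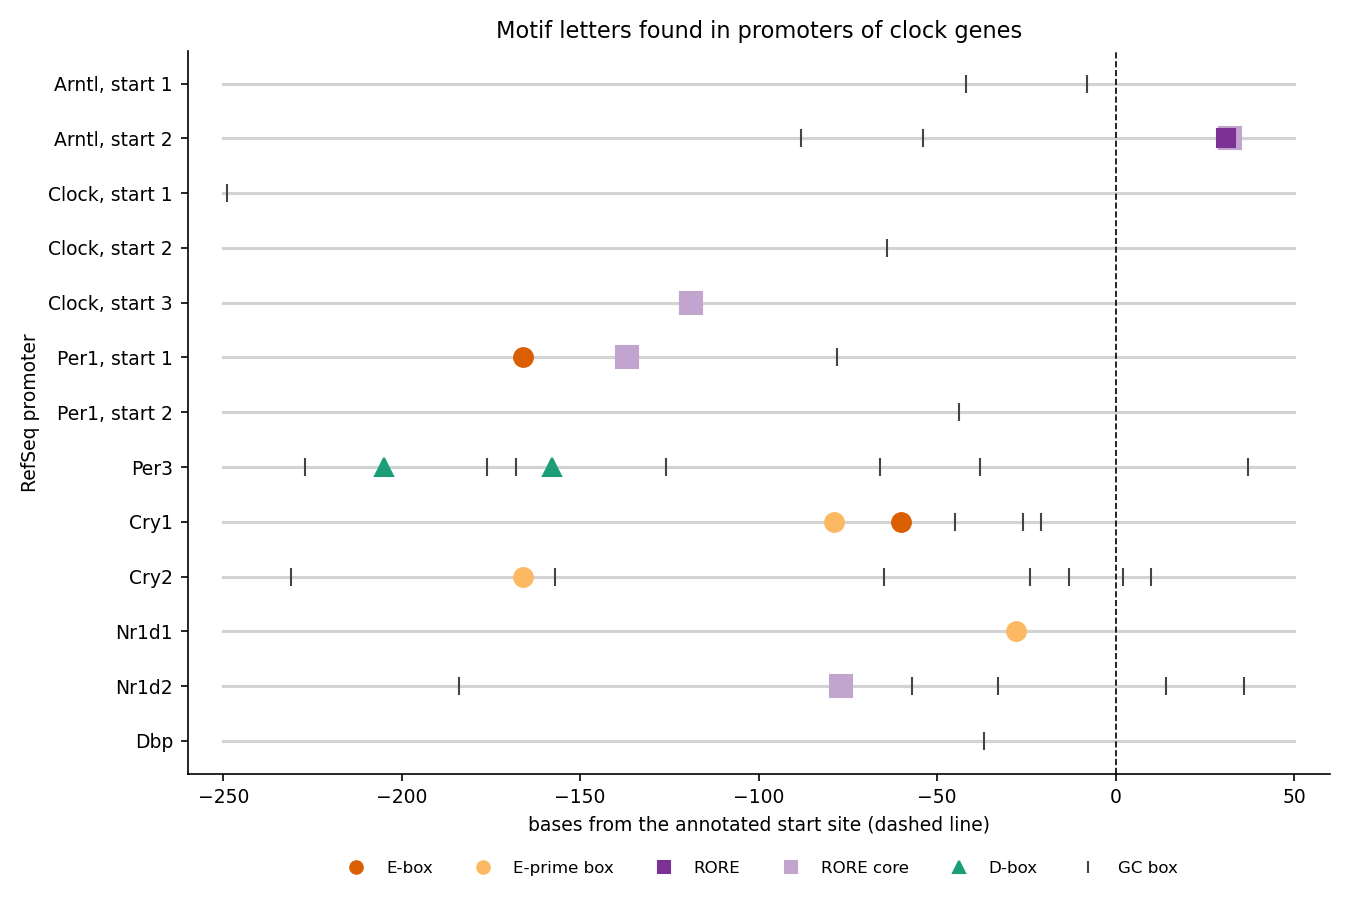
Motif letters in the 13 RefSeq promoters of 9 clock genes, by distance in bases from the annotated start (x axis, dashed line at the start). Each marker is a match on either strand. Per2 had no promoter in the set and is not shown. Cry1 held an E-prime box and an E-box, and Per3 held a pair of D-boxes.

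Libraries held 23664446 to 26122998 estimated counts, and the members drew 120.16 to 1189 estimated counts in a library. Each of the 12 libraries lay nearest to libraries of its own group. The labels do not state that libraries of 1 group stem from different cultures, and p-values then reflect only how these libraries vary, which may be technical variation. Albumin (Alb), the defining secreted protein of hepatocytes, was at 0 to 0.343 CPM (counts relative to the TMM-scaled library total) in every library. The 10 hepatocyte markers summed to 550 to 581 CPM in FK228+YF, 611 to 713 in FK228, 1130 to 1200 in YF and 1120 to 1220 in control, mostly from Trf and Apob. Of 9 tested, 0 rose and 8 fell in FK228+YF against control, 0 rose and 7 fell with FK228, and 2 rose and 3 fell with YF. The 6 macrophage and leukocyte markers summed to 52.0 to 60.1 CPM in FK228+YF, 23.7 to 29.7 in FK228, 9.84 to 11.7 in YF and 4.16 to 4.53 in control, mostly from Cd68 in FK228+YF and FK228, with Clec4f at 0 in FK228 and in control and Adgre1 at 0 in control. Of 4 tested, 2 rose with both treatments, 3 with FK228 and 2 with YF. The 7 stellate and fibroblast markers summed to 32.0 to 40.1, 31.5 to 33.0, 12.4 to 17.9 and 7.67 to 10.5 CPM in the same groups, mostly from Des, with Lrat at 0 in every treated library, Col1a2 at 0 in YF and Col3a1 at 0 in control, and of 3 tested 3, 2 and 1 rose. The 5 endothelial markers summed to at most 1.49 CPM, with Tek at 0 in YF and Kdr at 0 in control. The 5 cholangiocyte markers analysed summed to 4300 to 5120, 5420 to 5810, 5360 to 5580 and 4870 to 4940 CPM, again from FK228+YF to control. Most of each sum was Spp1, at 4150 to 4970, 5150 to 5560, 5000 to 5190 and 4090 to 4330 CPM. Krt19 was at 101 to 114, 165 to 179, 265 to 311 and 511 to 659 CPM in the same order, a fall that the sums do not show. Against control 0 of 5 were higher and 3 lower with both treatments, and 1 was higher and 3 lower with FK228 and with YF. The part of these shifts in the clock results was not tested. In bulk RNA, fewer cells of a type and less RNA per cell cannot be told apart.

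With both treatments 10 of 10 clock genes differed from control, 5 higher (Arntl, Cry1, Per1, Cry2 and Nr1d1) and 5 lower (Per2, Dbp, Nr1d2, Per3 and Clock). A gene was called at an adjusted p below 0.05 in edgeR's quasi-likelihood test, adjusted over all 13346 genes. Changes were common in the whole table, where FK228+YF against control called 77.4% of genes, 38.8% higher and 38.6% lower. FK228 without YF moved 5 of 10, with Nr1d1, Per1 and Arntl higher and Per2 and Clock lower, against 68.8% of all genes (33.2% higher and 35.5% lower). YF without FK228 moved 4 of 10, with Cry1 and Arntl higher and Dbp and Per3 lower, against 32.6% of all genes (18.0% higher and 14.6% lower). Read against these backgrounds, the share of clock genes called was above that of all genes with both treatments, below it with FK228 and near it with YF, and these shares were not tested. The median size of the log2 change over the 10 members was 0.77 for FK228+YF, 0.43 for FK228 and 0.23 for YF, beside 0.56, 0.40 and 0.17 over all genes tested. Groups did not overlap for 9 members with both treatments, 7 with FK228 and 4 with YF, against 78.7%, 69.5% and 44.0% of all genes. These comparisons share the control libraries.

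**Figure D2:**
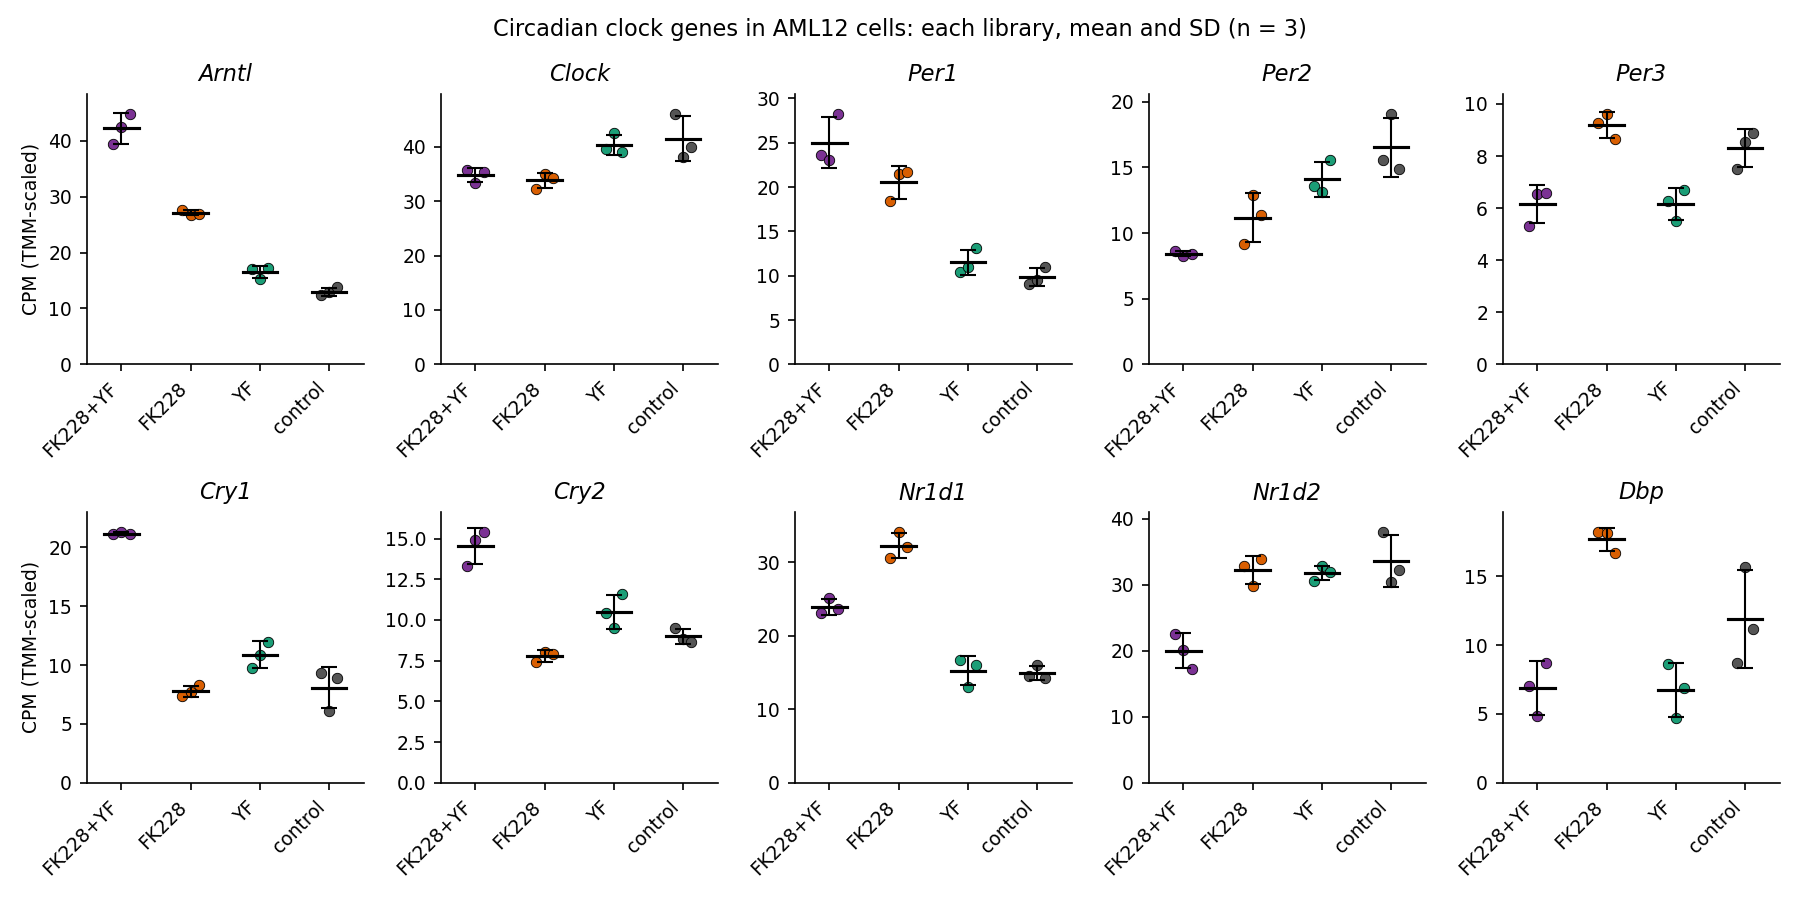
Levels of the 10 clock genes as CPM scaled by TMM (y axis, from 0) in each of the 12 libraries by group. Points are libraries, the wide bar is the group mean and the whiskers are the SD (n = 3). Cry1 sat between 21.1 and 21.3 CPM in FK228+YF and at or under 12 CPM in every other library.

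Of the dimer partners, Arntl rose and Clock fell with both treatments and with FK228, Arntl by more. Arntl, on chromosome 7 (113178471 to 113314126, plus strand), with RORE letters at 1 of its starts, had 39.4, 42.5 and 44.9 CPM in FK228+YF, 27.7, 26.8 and 27.0 CPM in FK228, 17.1, 15.2 and 17.3 CPM in YF, and 12.4, 12.9 and 13.8 CPM in control. Every FK228+YF library was above every FK228 library, these were above YF, and YF was above control, with no overlap between neighbouring groups. The log2 fold change against control was 1.7 ± 0.08 (SE) with both treatments, a 3.24-fold difference (adjusted p = 3.39e-14). It was 1.06 ± 0.08 with FK228 (adjusted p = 2.23e-10) and 0.34 ± 0.08 with YF (adjusted p = 0.003). Clock, on chromosome 5 (76209868 to 76305603, minus strand), averaged 34.9 ± 1.28 CPM in FK228+YF, 33.8 ± 1.49 CPM in FK228, 40.4 ± 1.82 CPM in YF and 41.4 ± 4.10 CPM in control (SD, n = 3 each). The libraries with FK228 reached at most 35.8 CPM and those without it at least 38.2 CPM. Clock fell by 0.25 ± 0.07 on the log2 scale in FK228+YF (adjusted p = 0.00399) and by 0.29 ± 0.07 in FK228 (adjusted p = 0.00131), while the change with YF was -0.04 ± 0.07 (adjusted p = 0.74). Of the other activators listed, Arntl2, a paralog of Arntl, was low at 1.34 ± 0.218 CPM in FK228+YF, 0.79 ± 0.0542 CPM in FK228, 0.246 ± 0.167 CPM in YF and 0.194 ± 0.0391 CPM in control. It was called higher with both treatments (2.76 ± 0.40, adjusted p = 2.04e-06) and with FK228 (2.00 ± 0.43, adjusted p = 0.000323). Npas2, which can replace Clock, was at or under 0.121 CPM in every library and was not tested.

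The period genes, whose proteins bring the cryptochromes to the nucleus, went separate ways. Per1 rose in both groups given FK228, Per2 fell in both, and Per3 fell in both groups with YF. Per1, on chromosome 11 (69095108 to 69109965, plus strand), had 23.6, 23.1 and 28.3 CPM in FK228+YF, 18.4, 21.5 and 21.7 CPM in FK228, 10.4, 11 and 13.1 CPM in YF, and 9.02, 9.52 and 11 CPM in control. Every library with FK228 was above every library without it, while YF and control overlapped. Against control Per1 was higher by 1.34 ± 0.11 with both treatments (adjusted p = 3.79e-10) and by 1.06 ± 0.11 with FK228 (adjusted p = 3.39e-08), and the difference with YF was 0.23 ± 0.12 (adjusted p = 0.14).

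Per2, on chromosome 1 (91415977 to 91459351, minus strand), had 8.63, 8.28 and 8.39 CPM in FK228+YF, 9.18, 12.9 and 11.4 CPM in FK228, 13.6, 13.1 and 15.6 CPM in YF, and 15.6, 19.1 and 14.9 CPM in control. The order of the groups was the reverse of that of Arntl, with YF and control overlapping. Per2 fell by 0.97 ± 0.12 on the log2 scale with both treatments (adjusted p = 3.06e-07), to 0.51 of the control level, and by 0.57 ± 0.12 with FK228 (adjusted p = 0.000254). With YF the change was -0.23 ± 0.12 (adjusted p = 0.14). Per3, on chromosome 4 (150997018 to 151044707, minus strand), whose promoter held the D-boxes, averaged 6.14 ± 0.734 CPM in FK228+YF, 9.18 ± 0.50 CPM in FK228, 6.16 ± 0.616 CPM in YF and 8.31 ± 0.717 CPM in control. All libraries with YF lay at or under 6.70 CPM and all without it at or above 7.51 CPM. Per3 fell by 0.44 ± 0.12 with both treatments (adjusted p = 0.00319) and by 0.43 ± 0.12 with YF (adjusted p = 0.00983), and was at 0.14 ± 0.12 with FK228 (adjusted p = 0.291). Without YF library 2, its lowest, the YF call was lost (log2 fold change -0.355, adjusted p = 0.0547). Of the other repressors listed, Bhlhe40 and Bhlhe41, which compete for E-boxes, rose with FK228 (0.49 ± 0.05, adjusted p = 5.84e-08, and 0.62 ± 0.12, adjusted p = 7.88e-05) and with both treatments they were at -0.10 ± 0.05 (adjusted p = 0.0989) and 0.20 ± 0.12 (adjusted p = 0.131). Ciart, at 1.62 ± 0.419 CPM in FK228+YF and 1.12 ± 0.537 CPM in control, passed in no comparison.

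The cryptochromes, which repress the ARNTL and CLOCK dimer directly, rose with FK228 in cells with YF and were not called in cells without it. Cry1, on chromosome 10 (85131700 to 85185054, minus strand), whose promoter held both kinds of E-box letters, had 21.1, 21.3 and 21.1 CPM in FK228+YF, 7.35, 7.73 and 8.27 CPM in FK228, 9.72, 10.9 and 12 CPM in YF, and 9.33, 6.09 and 8.87 CPM in control. FK228+YF was clear of every other group, YF was above control, and the FK228 libraries lay within the control range. The log2 fold change against control was 1.39 ± 0.12 with both treatments (adjusted p = 1.24e-09), -0.06 ± 0.13 with FK228 (adjusted p = 0.712) and 0.43 ± 0.13 with YF (adjusted p = 0.0135). The YF call rested on single libraries, since it was lost without control library 2 (0.257, adjusted p = 0.0995) or YF library 3 (0.349, adjusted p = 0.0796).

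Cry2, on chromosome 2 (92403646 to 92434085, minus strand), had 13.3, 14.9 and 15.4 CPM in FK228+YF, 7.39, 8.05 and 7.94 CPM in FK228, 10.4, 9.49 and 11.6 CPM in YF, and 9.53, 8.82 and 8.67 CPM in control. FK228+YF was again highest and FK228 lowest, without overlap with control on either side. With both treatments Cry2 was higher than control by 0.69 ± 0.10 (adjusted p = 3.16e-06). The difference was -0.21 ± 0.11 with FK228 (adjusted p = 0.0933) and 0.22 ± 0.11 with YF (adjusted p = 0.117), neither past the threshold. An antisense lncRNA, D930015M05Rik, shares 295 exonic bases with Cry2 and was not analysed here.

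The REV-ERB pair split. Nr1d1, on chromosome 11 (98767932 to 98775377, minus strand), had 23.1, 25.2 and 23.6 CPM in FK228+YF, 30.6, 34.1 and 32.1 CPM in FK228, 16.7, 13.0 and 16.0 CPM in YF, and 14.5, 16.0 and 14.3 CPM in control. FK228 was highest, FK228+YF came between it and the libraries without FK228, and YF overlapped control. Against control Nr1d1 rose by 0.68 ± 0.09 with both treatments (adjusted p = 6.53e-07) and by 1.11 ± 0.09 with FK228 (adjusted p = 5.77e-10), with 0.03 ± 0.09 for YF (adjusted p = 0.858). Nr1d2, on chromosome 14 (18204056 to 18239106, minus strand), had 22.6, 20.1 and 17.3 CPM in FK228+YF, 32.9, 29.8 and 33.9 CPM in FK228, 30.6, 32.8 and 32.0 CPM in YF, and 38.0, 30.5 and 32.2 CPM in control. The other groups overlapped between 29.8 and 38.0 CPM, and FK228+YF lay wholly under them. Nr1d2 fell by 0.75 ± 0.09 with both treatments (adjusted p = 3.39e-07), and was at -0.06 ± 0.09 with FK228 (adjusted p = 0.579) and -0.08 ± 0.09 with YF (adjusted p = 0.56).

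Nr1d1 lies tail to tail with Thra, the gene of thyroid hormone receptor alpha on the opposite strand, and they share 1075 bases, 263 of them exonic. Whether counting used strand is not stated in the sources used here, so reads from the shared stretch cannot be told apart. Thra was lowest in the groups given FK228, where Nr1d1 was highest, at 29.0 ± 0.247 CPM in FK228+YF, 34.3 ± 1.39 CPM in FK228, 42.6 ± 1.74 CPM in YF and 57.9 ± 5.38 CPM in control. It fell by 1.00 ± 0.07 on the log2 scale with both treatments (adjusted p = 2.82e-11) and by 0.76 ± 0.07 with FK228 (adjusted p = 4.24e-09).

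Among the ROR receptors, which activate at the sites that the REV-ERBs repress, Rora and Rorb were followed. Rora had 5.67, 8.0 and 6.84 CPM in FK228+YF, 7.06, 4.86 and 4.92 CPM in FK228, 2.96, 2.52 and 2.44 CPM in YF, and 1.2, 1.81 and 2.10 CPM in control. It was higher by 2.00 ± 0.20 with both treatments (adjusted p = 1.2e-08), by 1.72 ± 0.21 with FK228 (adjusted p = 2.73e-07) and by 0.63 ± 0.23 with YF (adjusted p = 0.037). Rorb rose by 0.48 ± 0.14 with both treatments (adjusted p = 0.00355), and was at 0.10 ± 0.14 with FK228 (adjusted p = 0.537) and -0.20 ± 0.14 with YF (adjusted p = 0.319).

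Dbp, the D-box activator of clock output, had the highest coefficient of variation among the members in every group but FK228. It lies on chromosome 7 (45705100 to 45710203, plus strand) and had 7.01, 4.85 and 8.73 CPM in FK228+YF, 18.2, 18.1 and 16.7 CPM in FK228, 8.65, 4.73 and 6.89 CPM in YF, and 8.72, 15.7 and 11.2 CPM in control. The FK228 libraries were the highest, both groups with YF were low, and the control libraries were spread between, with the lowest of them inside the FK228+YF range. Its coefficient of variation was 28.3% in FK228+YF, 4.72% in FK228, 29.1% in YF and 29.8% in control. Dbp fell by 0.79 ± 0.26 on the log2 scale with both treatments (adjusted p = 0.0163) and by 0.81 ± 0.26 with YF (adjusted p = 0.0336). With FK228 the difference was 0.58 ± 0.24 and just missed the threshold (adjusted p = 0.052), though the libraries did not overlap.

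The Dbp calls against control turned on single libraries. Without control library 2 the difference was -0.542 with both treatments (adjusted p = 0.0537), -0.558 with YF (adjusted p = 0.105) and 0.827 with FK228, which then passed (adjusted p = 0.00547). The call with both treatments was also lost without FK228+YF library 2 (-0.59, adjusted p = 0.0555). The YF call was lost as well without YF library 2 (-0.609, adjusted p = 0.0995), control library 3 (adjusted p = 0.0622), YF library 3 (adjusted p = 0.0829) or FK228+YF library 1 (adjusted p = 0.0513). The FK228 difference passed without YF library 1 or 2 (adjusted p = 0.0376 and 0.0294) or FK228+YF library 2 or 3 (adjusted p = 0.0262 and 0.0391).

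Dbp overlaps Sphk2, a sphingosine kinase gene on the opposite strand, over 741 bases, 539 of them exonic, and Nr1d1 and Dbp were the 2 of 10 members with estimated counts that were not whole. Sphk2 was at 41.8 ± 1.02 CPM in FK228+YF, 33.1 ± 2.35 CPM in FK228, 40.0 ± 1.84 CPM in YF and 40.0 ± 0.959 CPM in control, so it was lowest in the group where Dbp was highest. Its part in the Dbp counts was not tested. Of the related factors, Tef, another D-box activator, rose with FK228 (0.40 ± 0.08, adjusted p = 8.84e-05) and fell with YF (-0.26 ± 0.08, adjusted p = 0.0121) and with both treatments (-0.18 ± 0.08, adjusted p = 0.0427). Nfil3, the repressor at D-boxes, rose with both treatments (0.61 ± 0.07, adjusted p = 1.54e-07) and with YF (0.29 ± 0.07, adjusted p = 0.00519). Hlf was at or under 0.0839 CPM in every library and was not tested.

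**Figure D3:**
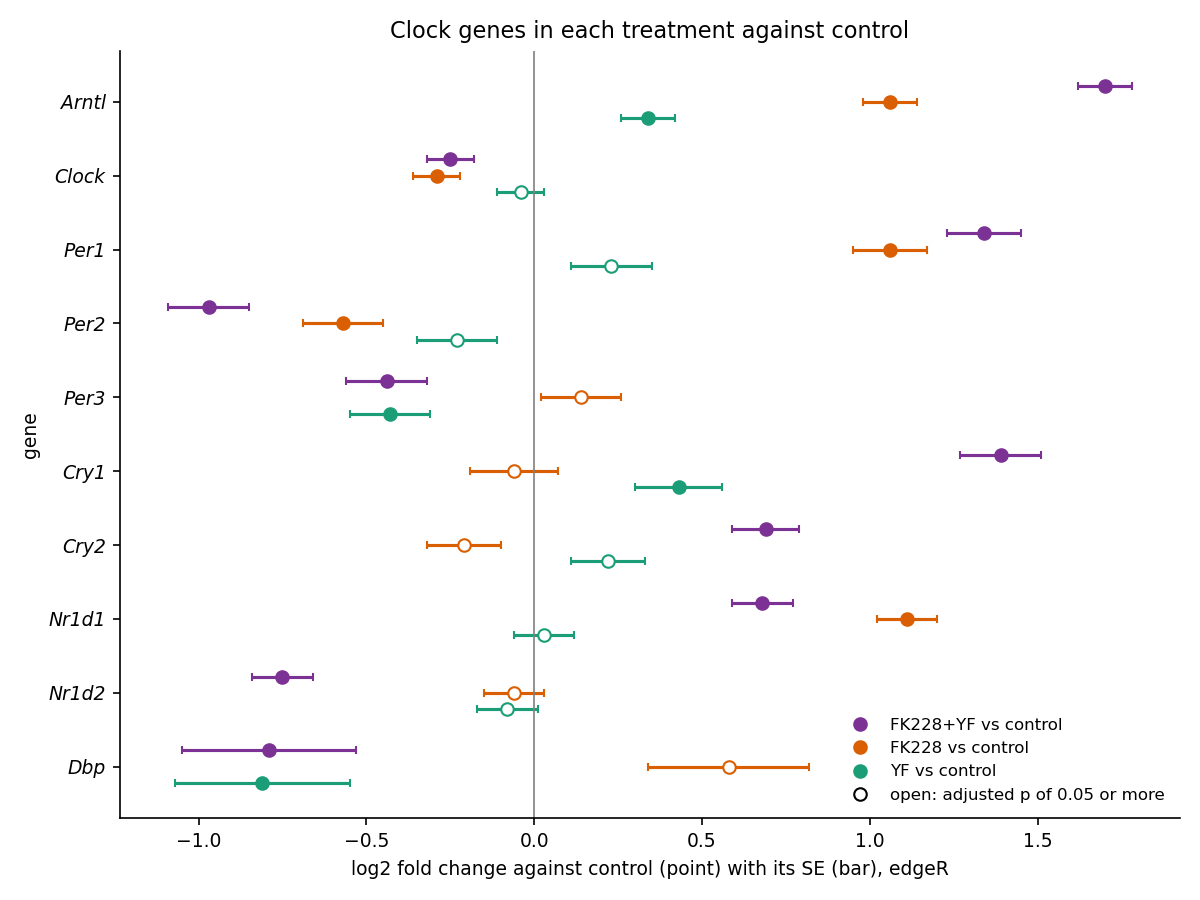
Log2 fold change against control (x axis, points) with its SE (bars) for each of the 10 clock genes (y axis) in FK228+YF, FK228 and YF. Filled points passed an adjusted p of 0.05 in edgeR's quasi-likelihood test and open points did not. All 10 points for FK228+YF are filled, against 5 for FK228 and 4 for YF.

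The design allows a test of whether the FK228 effect differed with YF present, as the FK228 effect with YF (FK228+YF against YF) minus the effect without it (FK228 against control). This interaction was called for 4 of 10 members, against 26.5% of all genes (11.1% with a positive value and 15.3% with a negative one). They were both cryptochromes, with positive values, and both REV-ERBs, with negative ones. For Cry1 FK228 gave 0.96 ± 0.12 with YF and -0.06 ± 0.13 without, a difference of 1.02 ± 0.18 (adjusted p = 0.000266). For Cry2 it gave 0.47 ± 0.10 and -0.21 ± 0.11, a difference of 0.68 ± 0.15 (adjusted p = 0.00195). For Nr1d2 it gave -0.67 ± 0.09 and -0.06 ± 0.09, a difference of -0.61 ± 0.13 (adjusted p = 0.00176). For Nr1d1 it gave 0.65 ± 0.09 and 1.11 ± 0.09, so the rise was smaller with YF by 0.45 ± 0.13 (interaction -0.45, adjusted p = 0.0115). The interaction stayed called for these 4 genes when any 1 of the 12 libraries was left out. For Arntl it was 0.29 ± 0.11 and missed the threshold (adjusted p = 0.0556), and it passed without control library 1 (0.329, adjusted p = 0.0378) or FK228+YF library 1 (0.34, adjusted p = 0.0392). For Dbp it was -0.55 ± 0.37 (adjusted p = 0.307), with an SE too wide to separate it from 0. The values for Per1 (0.05 ± 0.16), Per2 (-0.18 ± 0.17), Per3 (-0.15 ± 0.17) and Clock (0.08 ± 0.10) did not pass.

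Among cells with YF, FK228 moved 8 of 10 members, 5 higher and 3 lower, against 70.6% of all genes (34.7% higher and 35.9% lower), and the groups did not overlap for those 8, against 75.3% of all genes. Arntl was higher by 1.35 ± 0.08 (adjusted p = 1.8e-12) and Per1 by 1.12 ± 0.11 (adjusted p = 8.63e-09), beside 1.06 for each without YF. Cry1 (adjusted p = 3.2e-07), Cry2 (adjusted p = 0.000309) and Nr1d1 (adjusted p = 1.55e-06) rose too, and Nr1d2 fell (adjusted p = 2.21e-06). Per2 fell by 0.74 ± 0.12 (adjusted p = 1.72e-05). Clock fell by 0.21 ± 0.07 (adjusted p = 0.0135), a call that was lost without YF library 2 (-0.178, adjusted p = 0.0579) or FK228+YF library 2 (-0.172, adjusted p = 0.0769). Per3 and Dbp did not pass, and their group means were close, at 6.14 CPM in FK228+YF and 6.16 CPM in YF for Per3 and at 6.86 and 6.76 CPM for Dbp.

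**Figure D4:**
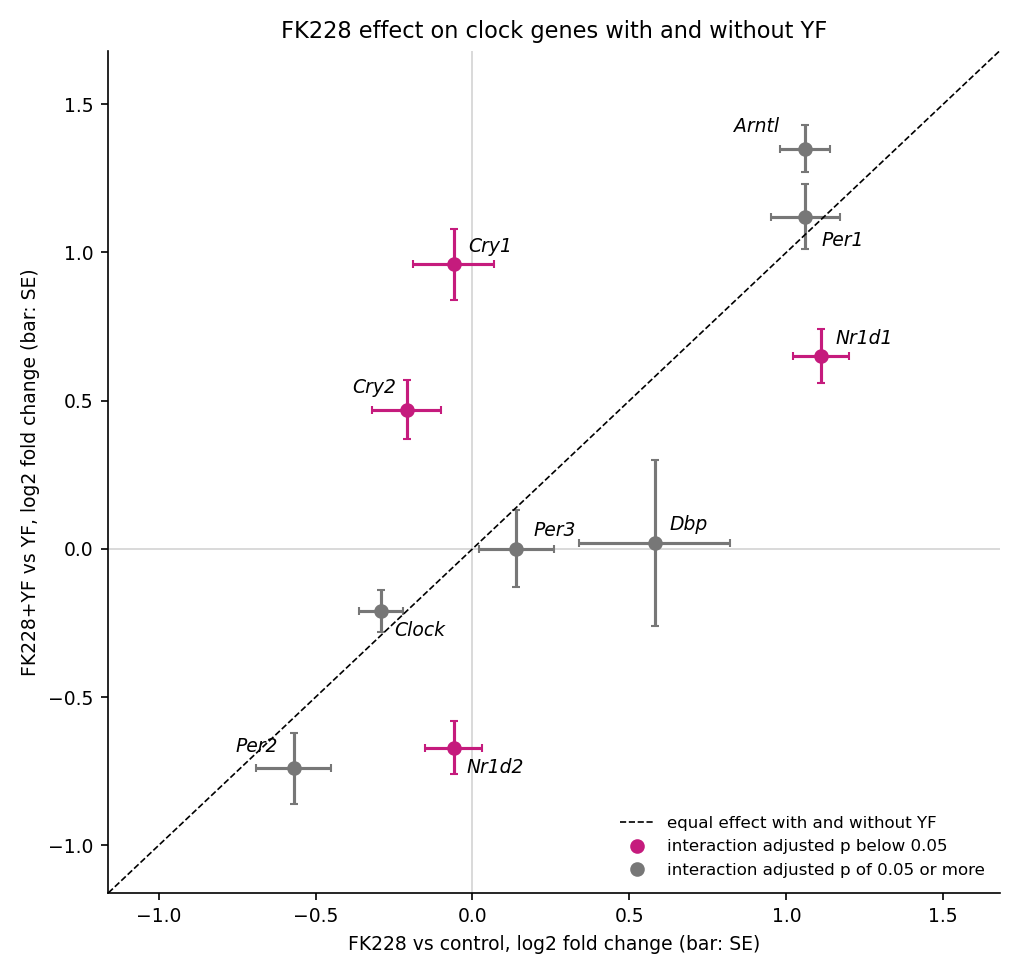
Log2 fold change with FK228 in cells with YF (y axis, FK228+YF against YF) and without YF (x axis, FK228 against control) for the 10 clock genes, with SE bars. The dashed line marks equal effects. Cry1 and Cry2 lie above it and Nr1d1 and Nr1d2 below it, with interaction values of 1.02, 0.68, -0.45 and -0.61.

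Among cells given FK228, adding YF moved 9 of 10 members, 4 higher and 5 lower, against 52.9% of all genes (26.6% higher and 26.3% lower), and the groups did not overlap for those 9, against 60.1% of all genes. Clock was the exception (0.04 ± 0.07, adjusted p = 0.641). The genes that rose were Cry1, by 1.44 ± 0.12 (2.72-fold, adjusted p = 7.25e-09), Cry2, by 0.90 ± 0.11 (adjusted p = 4.53e-07), Arntl, by 0.64 ± 0.07 (adjusted p = 4.38e-07), and Per1, by 0.28 ± 0.10 (adjusted p = 0.0272). The genes that fell were Dbp, by 1.37 ± 0.26 (adjusted p = 0.000888), Nr1d2, by 0.69 ± 0.09 (adjusted p = 4.1e-06), Per3, by 0.58 ± 0.12 (adjusted p = 0.000503), Nr1d1, by 0.43 ± 0.09 (adjusted p = 0.000304), and Per2, by 0.40 ± 0.13 (adjusted p = 0.011). The Per1 call was lost without FK228 library 1 (0.189, adjusted p = 0.17) or FK228+YF library 3 (0.181, adjusted p = 0.189). That for Per2 was lost without FK228 library 2 (-0.301, adjusted p = 0.0744).

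To compare genes with one another, levels per length were taken from the deposited TPM. Arntl led in FK228+YF at 18.6 ± 1.59 TPM, followed by Nr1d1 at 10.4 ± 0.647 TPM and Cry1 at 8.35 ± 0.20 TPM, each clear of the next. Per1, Dbp, Nr1d2, Cry2 and Clock followed at means of 6.10 to 3.96 TPM, with neighbours overlapping, above Per2 at 1.73 ± 0.0321 TPM. In FK228 the highest were Dbp at 13.6 ± 0.697, Nr1d1 at 13.5 ± 1.45 and Arntl at 11.4 ± 0.709 TPM, with neighbours overlapping. Nr1d2 (7.80 ± 0.946 TPM) and Per1 (4.88 ± 0.766 TPM) came next, each clear of the following, and Clock, Cry1, Cry2 and Per2 ran on from 3.65 to 2.24 TPM with neighbours overlapping. In YF the highest was Nr1d2 at 8.68 ± 0.10 TPM, above Arntl at 7.95 ± 0.764 and Nr1d1 at 7.21 ± 1.10 TPM, and Dbp, Clock and Cry1 overlapped in turn at 5.85, 5.05 and 4.67 TPM. In control Dbp (9.74 ± 2.93 TPM) and Nr1d2 (8.67 ± 1.13 TPM) overlapped at the top, and Arntl came after Nr1d1 at 5.96 ± 0.308 TPM, with Clock, Per2, Cry1, Cry2 and Per1 at 4.88, 3.58, 3.29, 2.72 and 2.45 TPM. Per3 was lowest in each group, at 1.2 ± 0.157 TPM in FK228+YF, 1.72 ± 0.0586 in FK228, 1.30 ± 0.165 in YF and 1.65 ± 0.122 in control. By deposited FPKM 10 of 10 members kept their rank in each group.

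The ratio of related genes within a library differed between the groups. Nr1d1 over Nr1d2 in TPM was 2.10 ± 0.301 in FK228+YF, 1.74 ± 0.206 in FK228, 0.831 ± 0.131 in YF and 0.778 ± 0.122 in control. It was at least 1.60 in every library with FK228 and at most 0.942 in every library without it. Per1 over Per2 was 3.52 ± 0.419 in FK228+YF, 2.21 ± 0.244 in FK228, 0.976 ± 0.0624 in YF and 0.697 ± 0.137 in control, with no overlap between the groups. Arntl over Clock was 4.70 ± 0.401, 3.14 ± 0.234, 1.58 ± 0.179 and 1.23 ± 0.188 in the same order of groups, and YF and control overlapped while the other groups did not. Cry1 over Per2 was 4.82 ± 0.20 in FK228+YF and between 0.601 and 1.58 in all libraries of the other groups. These ratios are descriptions and were not tested.

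**Figure D5:**
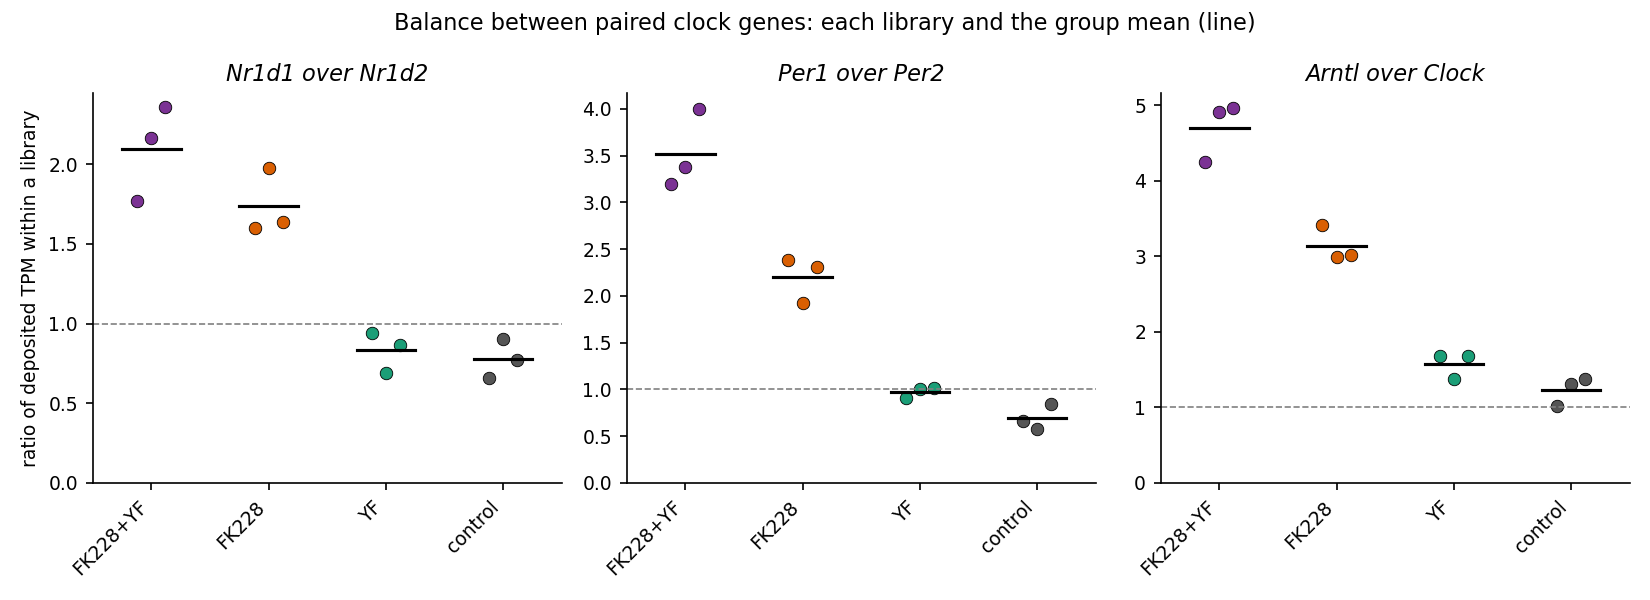
Ratio of deposited TPM within each library (y axis, from 0) for Nr1d1 over Nr1d2, Per1 over Per2 and Arntl over Clock by group. Points are libraries, the solid line is the group mean and the dashed line marks a ratio of 1. Nr1d1 over Nr1d2 was above 1 in the libraries with FK228 and under 1 in the others.

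Patterns across the 12 libraries were compared by the root mean square (RMS) difference of log2 CPM after each gene was centred on its own mean. Among members the closest were Arntl and Per1 (RMS 0.18), then Per2 and Nr1d2 (0.28), Clock and Nr1d2 (0.29) and the cryptochromes (0.30), and the farthest were Cry1 and Dbp (1.17). For the 5 members whose group means spanned at least 1 log2 unit, the nearest of 10440 genes outside the members were sought. Arntl was most like Plxna3 (RMS 0.049), at 51.2 CPM in FK228+YF, 35.0 in FK228, 21.0 in YF and 16.4 in control, then Tgoln1 (0.081) and Gch1 (0.098). Nr1d1 was most like Ms4a4d (0.06), then Glud1 (0.105) and Lamb3 (0.106), and Per1 was most like Gpr108 (0.117), Mapk8ip3 and Creg1 (0.12 each). Cry1 (Snx11 0.191, Asb1 0.192 and Ints1 0.202) and Dbp (Ggt6 0.235, Ugt2b34 0.249 and Tekt4 0.264) had looser neighbours. The same genes came first when libraries were scaled by DESeq2 size factors, and all of these values rest on the same 12 libraries.

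Of the 6 genes of the corepressor that the REV-ERBs recruit, 2 rose and 4 fell with both treatments (77.4% of all genes were called), 0 rose and 2 fell with FK228 (68.8% of all genes), and 0 rose and 3 fell with YF (32.6% of all genes). Hdac3, its deacetylase, had 141, 143 and 147 CPM in FK228+YF, 111, 113 and 116 CPM in FK228, 115, 110 and 115 CPM in YF, and 107, 107 and 102 CPM in control. FK228+YF was clear above the other groups, and the rise against control was 0.45 ± 0.05 (adjusted p = 6.85e-08). Since the mutated HDACs are not named, transcripts of a construct and of the cells' own gene cannot be told apart. Ncor1, the scaffold of the complex, fell by 0.78 ± 0.06 with both treatments (adjusted p = 4.61e-10) and by 0.47 ± 0.06 with FK228 (adjusted p = 1.38e-06), while with YF it was at -0.05 ± 0.06 (adjusted p = 0.588). Tbl1xr1, a subunit known as an exchange factor between corepressors and coactivators, fell by 1.2 ± 0.12 with both treatments (adjusted p = 8.42e-08), by 0.48 ± 0.12 with FK228 (adjusted p = 0.00148) and by 0.96 ± 0.12 with YF (adjusted p = 1.2e-05). Gps2 was the other gene that rose with both treatments (0.48 ± 0.06, adjusted p = 2.27e-07).

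In 9 lists of pathway genes around the members, 61 of 68 genes were tested. With both treatments 23 rose and 24 fell, with FK228 20 rose and 20 fell, and with YF 7 rose and 14 fell. Set against the 77.4%, 68.8% and 32.6% of all genes called, these shares are near the background and are no result about the pathway. Of the 12 kinases, ubiquitin ligases and deubiquitinases that act on clock proteins, 6 rose and 4 fell with both treatments, 4 rose and 3 fell with FK228, and 1 rose and 1 fell with YF, the FK228 and YF shares being below those of all genes. Usp2, a deubiquitinase that acts on the PER1 and ARNTL proteins, was at 5.68 ± 0.0979 CPM in FK228+YF, 2.60 ± 0.533 CPM in FK228, 2.24 ± 0.363 CPM in YF and 0.761 ± 0.0223 CPM in control. It rose by 2.89 ± 0.21 with both treatments (adjusted p = 3.53e-11), 1.77 ± 0.22 with FK228 (adjusted p = 5.06e-07) and 1.55 ± 0.23 with YF (adjusted p = 2.34e-05). Csnk1d, which phosphorylates PER proteins, fell by 0.57 ± 0.05 with both treatments (adjusted p = 1.87e-09) and by 0.12 ± 0.05 with FK228 (adjusted p = 0.0445). Its paralog Csnk1e, also a PER kinase, rose by 0.26 ± 0.06 with both treatments (adjusted p = 0.000356) and by 0.39 ± 0.06 with FK228 (adjusted p = 5.24e-06).

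Of the 12 chromatin partners of clock proteins, 1 rose and 8 fell with both treatments, 1 rose and 9 fell with FK228, and 1 rose and 3 fell with YF, beside 38.6%, 35.5% and 14.6% of all genes called lower. With both treatments and with FK228 they had a median log2 change of -0.66 and -0.58 beside 0.01 and -0.02 over all genes tested. The acetyltransferase genes Kat2b (-1.81 ± 0.09, adjusted p = 1.21e-13) and Crebbp (-1.44 ± 0.15, adjusted p = 4.77e-08) were among those that fell with both treatments. Of 11 clock output genes tested, 7 rose and 3 fell with both treatments, 6 rose and 1 fell with FK228, and 2 rose and 2 fell with YF, beside 38.8%, 33.2% and 18.0% of all genes called higher. Wee1, a cell cycle kinase gene under E-box control, fell by 1.65 ± 0.10 with both treatments (adjusted p = 3.51e-12) and by 1.68 ± 0.10 with FK228 (adjusted p = 6.62e-12). Of 11 genes of the CREB and glucocorticoid routes that induce Per genes, 3 rose and 3 fell with both treatments, below the share of all genes, 4 rose and 4 fell with FK228, and 1 rose and 3 fell with YF, both near it.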

How the data were processed

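Paired-end BGISEQ reads were made from RNA of 12 AML12 libraries, per the labels' protocols. The authors deposited estimated counts per gene, not scaled to library size, per the file headers and column totals, and 16.6% of the values are not whole. The authors also deposited TPM and FPKM, both scaled for length and depth, per the file headers. GRCm38.p6, RSEM 1.2.12, HISAT2 2.0.4, DESeq2 1.4.5 and Bowtie2 2.2.5 appear in the submitters' processing notes, without roles. Annotation, filters and strand use are not stated there.

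The estimated counts were rounded, filtered with edgeR's filterByExpr and scaled by TMM, and a robust quasi-likelihood model with 1 term per group was fitted to the 12 libraries (edgeR 4.0.16, limma 3.58.1, R 4.3.3), with Benjamini-Hochberg adjustment over 13346 genes. Scripts were tested on simulated data. Fold changes are log2. Their SE is approximate, taken as the size of the log2 fold change divided by the square root of the quasi-likelihood F statistic. Levels between genes use the deposited TPM, with FPKM as the alternative.

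The members, gene lists and motifs were chosen with earlier results of these data known. Named genes were all 10 members, up to 4 called genes of each list by size of change with a mean CPM of 1 or more (fewer are printed), genes overlapping a member, and the 3 nearest patterns with a mean CPM of 5 or more. Listed genes that passed in no comparison or lay near 0 (Ciart, Npas2 and Hlf), and Csnk1e, were named after their values were seen. Some listed genes are counted with their lists and not reported singly here. Replicate libraries differed beyond counting noise (mean chi-square 3.58 to 21.6 per gene). Alternatives were DESeq2 1.42.0, its size factors in edgeR, limma-voom, a minimum of 5 CPM in 3 libraries (called the filter of 5 CPM), all genes kept (no count filter), the compared groups alone, a replicate block and each library left out.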

Additional observations from a re-analysis of the deposited data

Results flagged for a closer look

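The FK228 effect differed between cells with and without YF for 4 of the 10 clock genes, by a test of the difference itself (the interaction in edgeR's quasi-likelihood fit). For Cry1 the effect was larger with YF by 1.02 ± 0.18 on the log2 scale (adjusted p = 0.000266). For Cry2 it was larger by 0.68 ± 0.15 (adjusted p = 0.00195), and with YF it was an increase. For Nr1d2 the difference was -0.61 ± 0.13 (adjusted p = 0.00176), with the fall seen in cells with YF. For Nr1d1 it was -0.45 ± 0.13 (adjusted p = 0.0115), a smaller rise with YF. Groups of 3 libraries were not tested for outlying samples.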

How the results depend on the processing

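Of the 40 calls on members in the 6 comparisons, 33 held under every alternative and 0 changed sign. The number of members called when 1 library was left out ranged from 5 to 6 for FK228 against control, 2 to 4 for YF against control, 9 to 10 for FK228+YF against control, 7 to 8 for FK228+YF against YF, 8 to 9 for FK228+YF against FK228 and 4 to 5 for the interaction. The count for YF was 2 without control library 2 and without YF library 2 or 3. Under the other alternatives, the count was within 1.5 times the main count in each comparison.

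Dbp in FK228 against control passed with DESeq2 size factors (adjusted p = 0.0419), the filter of 5 CPM (adjusted p = 0.0314), limma-voom (adjusted p = 0.0208) and the compared groups alone (adjusted p = 0.00913). Dbp in YF against control was lost with no count filter (-0.822, adjusted p = 0.08). The interaction of Arntl passed with the filter of 5 CPM (adjusted p = 0.0494). The causes were not tested.

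Values near 0 that changed sign were those of Per3 in FK228+YF against YF (-0.003), at 0.029 with DESeq2 size factors, 0.033 with the filter of 5 CPM and 0.029 with DESeq2. With 1 library left out the log2 differences ranged from -0.229 to 0.055 for Cry1 and -0.126 to 0.037 for Nr1d2 in FK228 against control. In YF against control they ranged from -0.092 to 0.046 for Clock, -0.04 to 0.129 for Nr1d1 and -0.141 to 0.022 for Nr1d2. In FK228+YF against YF they ranged from -0.084 to 0.09 for Per3 and -0.192 to 0.232 for Dbp, and in FK228+YF against FK228 from -0.01 to 0.059 for Clock. The interaction ranged from -0.004 to 0.134 for Clock and -0.048 to 0.153 for Per1.

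Same-numbered libraries did not deviate together (correlations over genes of -0.215 to 0.0887, 0 of 18 above 0.1) and did not each correlate best with their own number. The labels do not say what the number marks, and groups this small cannot show whether a culture or day was shared. With the replicate block 5, 3, 10, 8, 9 and 4 members were called for FK228, YF and FK228+YF against control, FK228+YF against YF, FK228+YF against FK228 and the interaction, and the call lost was Dbp with YF (-0.821, adjusted p = 0.0675). The lowest estimated count of a member in a library was 120.16, for Dbp in FK228+YF, and depth as a limit was not tested.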
